A study of Mus musculus with 24 samples.

Results

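The genes described here are 10 of the 24421 gene symbols counted in each RNA-seq table of the series. They act in cystine uptake, in the making and use of glutathione, and in the antioxidant defence around it: Slc7a11, Gclc, Gclm, Gss, Gpx4, Gsr, Txnrd1, Srxn1, Hmox1 and Nqo1. The set was drawn up because Slc7a11 messenger RNA was higher after Fto knockdown in tumour cells and also in the T cells that had met those tumour cells. The set was thus chosen by the Slc7a11 levels of those comparisons, which are given below as a description, without a test. All 10 genes passed the filter on low counts in both tables. On GRCm38.p6 the other 9 lie at chr9:77754535-77794489 (Gclc), chr3:122245487-122267215 (Gclm), chr2:155563181-155592810 (Gss), chr10:80047166-80056439 (Gpx4), chr8:33653238-33698162 (Gsr), chr10:82833951-82897724 (Txnrd1), chr2:152105524-152111376 (Srxn1), chr8:75093618-75100593 (Hmox1) and chr8:107388225-107403205 (Nqo1).

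The series used B16-OVA cells, a melanoma line of C57BL/6 mice that carries the ovalbumin antigen, grown under puromycin with a hairpin against Fto (shFto) or a control hairpin (shNC). The FTO enzyme takes the methyl mark N6-methyladenosine (m6A) off RNA. Tumour cells were profiled by RNA-seq and by ATAC-seq, a map of open chromatin, with 3 shFto and 3 shNC libraries each. For m6A-seq there was 1 peak list each for shNC cells in DMSO, shFto cells in DMSO, and shNC cells given 5 µM Dac51, with a treatment time of 48 h. OT-I CD8+ T cells, which recognise an ovalbumin peptide, came from mice of the C57BL/6 background and were isolated as naive cells. They were kept for 8 h in co-culture with B16-OVA cells of the shNC, shFto-1 or shFto-2 line, in medium with 50 U IL-2 and were then sorted, with 2 RNA-seq libraries for each. All T cells thus met antigen-bearing tumour cells, also those called shNC here, and the hairpin was in the tumour cells and not in the T cells. The labels do not say which shFto line gave the tumour RNA, ATAC-seq and m6A-seq samples, and give no age for the mice.

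Cystine, the oxidised form of cysteine, enters cells through system xc-, in which Slc7a11 is the transporter chain and Slc3a2 the chain that carries it to the membrane, in exchange for glutamate. Inside, cystine is reduced to cysteine, whose supply limits the making of glutathione. Glutathione and the thioredoxin system then remove peroxides, and NADPH keeps both reduced. The transcription factors NRF2 (gene Nfe2l2) and ATF4 are known to drive many of these genes, the first under oxidative stress and the second under lack of amino acids, and T cells are known to raise cystine import when activated.

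Total counts were 11152404 to 19665589 in the tumour libraries and 2628158 to 13066355 in the T cell libraries, with the lowest in shNC replicate 1. Levels are in CPM, reads of a gene per 1000000 reads of the library, after TMM scaling, which was done in each table on its own. Fto itself was at 31.7, 33.5 and 28.3 CPM in the shFto tumour libraries against 107, 108 and 91.8 CPM in shNC. CD8 T cell markers (10 genes) summed to 3534 to 5402 CPM in the T cell libraries and to 4.12 to 7.24 CPM in the tumour libraries. All 10 melanocyte and melanoma markers were also found in every T cell library. Their sum was 1325 and 1710 CPM in the T cells of shNC co-cultures, 1963 and 1781 in those of shFto-1 and 1700 and 1928 in those of shFto-2, against 18056 to 19081 CPM in shNC and 22823 to 23735 CPM in shFto tumour cells. The shFto tumour group, whose line is not labelled, served for both knockdown lines. Set against the shNC or shFto tumour group, the T cell libraries held 7.19% to 9.28% of the marker level. For single markers that share ran from 1.33% to 16.8%. In bulk libraries, a different number of cells of a type and a different amount of RNA per cell cannot be told apart.

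Slc7a11 lies on chromosome 3 (chr3:50364936-50499087, GRCm38.p6). In tumour cells it was at 24.0, 22.2 and 21.8 CPM in the 3 shFto libraries, from 451, 255 and 431 reads, and at 6.00, 5.69 and 3.72 CPM in the shNC libraries, from 79, 98 and 53 reads. The groups did not overlap, and the lowest shFto library was well above the highest shNC library. The means were 22.7 ± 1.16 and 5.14 ± 1.24 CPM (SD, n = 3), a ratio of 4.42 and a fitted log2 fold change of 2.14. Leaving out each library in turn, and changing the scaling, filter and tool, moved that log2 value between 1.96 and 2.26.

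In T cells the level of Slc7a11 was 11.8 and 10.1 CPM beside shFto-1 cells, from 146 and 51 reads. Beside shFto-2 cells it was 21.2 and 27.9 CPM, from 189 and 175 reads. Beside shNC cells it was 0 and 2.94 CPM, from 0 and 21 reads. The library without a read was also the shallowest, where 3 reads, the limit that a count of 0 allows, would come to 1.07 CPM. Both shFto co-cultures lay above both shNC libraries, with fitted log2 fold changes of 2.48 for shFto-1, 3.63 for shFto-2 and 3.06 for their mean. The control rests on 21 reads in 1 library. Without shNC replicate 2 the fitted value for the mean became 9.87 against a library with no read, which gives no size, and without shNC replicate 1 it was 2.45.

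The 2 knockdown lines were compared in a contrast that did not choose the set. Slc7a11 was higher in both T cell libraries beside shFto-2 than in both beside shFto-1, by 1.15 ± 0.42 (SE) on the log2 scale, and this did not pass the test (edgeR adjusted p = 0.199, 95% interval 0.21 to 2.09, not adjusted, as are all intervals here). Over the alternatives the adjusted p of Slc7a11 in this comparison ran from 0.00628 to 0.776. The order of the group means was T cells beside shFto-2, shFto tumour cells, T cells beside shFto-1, shNC tumour cells and T cells beside shNC. The first and second groups in that order overlapped, and the other neighbours did not. Levels of the 2 tables were scaled apart, so this order was not tested.

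The share of melanoma markers in the T cell libraries can be set against these values. The same share of the tumour level of Slc7a11 would come to 0.370 to 1.90 CPM per library. In the 5 T cell libraries with reads of Slc7a11 this was 6.70% to 17.2% of its level. With that amount taken from each library, the mean over both shFto co-cultures was 13.0 times that beside shNC, where the ratio before was 12.1. This subtraction was chosen after the data were seen, and it takes the 10 markers to stand for all tumour RNA.

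**Figure D1:**
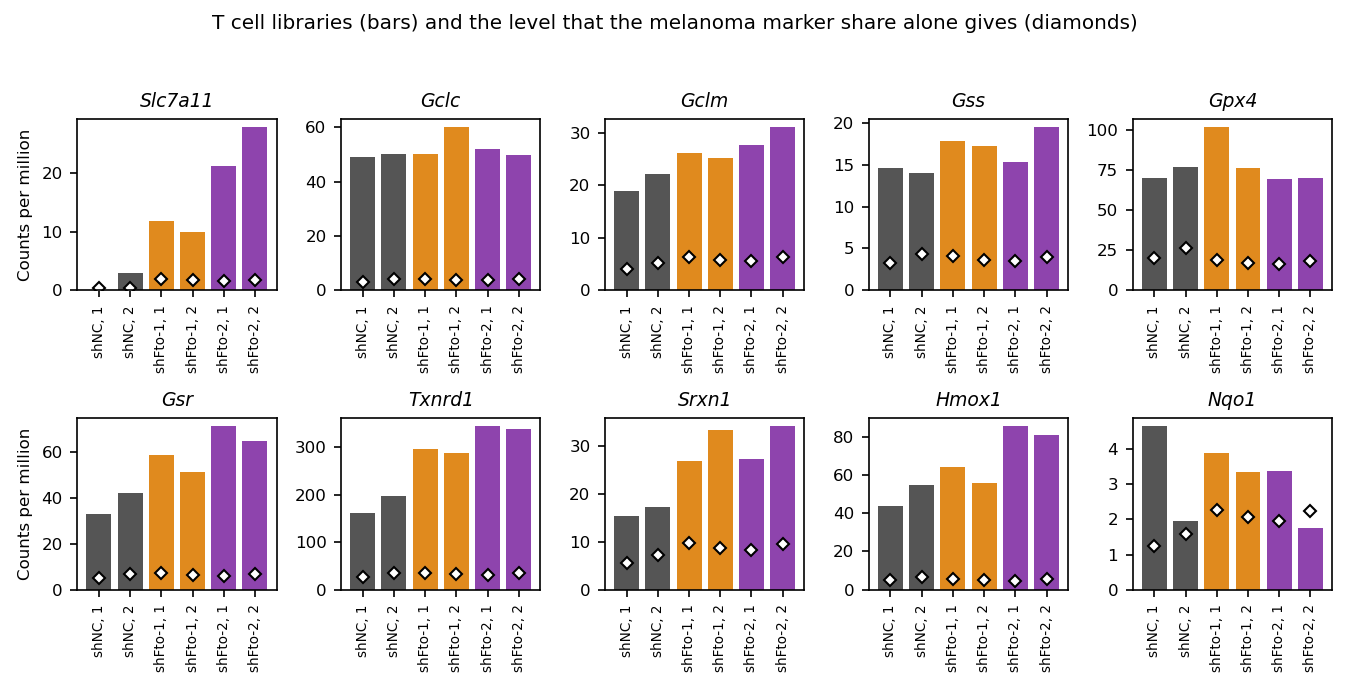
Bars show each member's level in CPM in the 6 T cell libraries, named by co-culture and replicate. Diamonds show the level that the melanoma marker share of that library gives when applied to a tumour group mean. That group was shNC for shNC co-cultures and shFto for both knockdown lines. For Slc7a11 the diamonds lie at 0.370 to 1.90 CPM. For Nqo1 they lie at 26.5% to 127% of the bars, above the bar in 1 library, shFto-2 replicate 2.

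The promoter of Slc7a11 is printed because it lay in open chromatin in all 6 tumour ATAC-seq libraries. It is the 250 bases before the RefSeq transcript start (GRCm38.p6, minus strand, chr3:50443614-50443863), written 5′ to 3′. Capitals mark matches to TGATGNAA, the core of the composite element bound by ATF4 with C/EBP factors, searched on both strands.
Slc7a11: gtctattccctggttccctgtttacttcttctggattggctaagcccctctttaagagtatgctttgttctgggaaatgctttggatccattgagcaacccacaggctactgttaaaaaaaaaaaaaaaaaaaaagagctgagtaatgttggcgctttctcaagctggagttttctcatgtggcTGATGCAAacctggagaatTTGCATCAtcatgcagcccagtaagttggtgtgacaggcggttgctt
The window held 2 matches, 1 on each strand, beginning 66 and 47 bases before the start. Of 32851 promoter windows of this length, 3.45% held at least 1 match and 13 windows (0.0396%) held 2 or more. A match describes letters and not a bound site.

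ATAC-seq peaks covered this promoter in every library. Their widths were 546, 479 and 499 bases in the shFto libraries and 488, 445 and 357 bases in the shNC libraries, and these ranges overlapped. Each peak's fold enrichment is the authors' value and was used only within its own list. Within 10 kb of the Slc7a11 gene, 6 merged peak regions were found, 4 of them in all 6 libraries and none in all 3 libraries of 1 group alone.

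Enzymes that make glutathione differed between the tumour groups in Gclm, the regulatory subunit of glutamate-cysteine ligase, which carries out the rate-limiting step. Gclm was at 78.2, 71.0 and 81.1 CPM in shFto and 56.9, 55.8 and 58.3 CPM in shNC tumour cells. All 3 shFto libraries were higher than all shNC libraries, and Gclm rose by 0.43 ± 0.09 (SE) on the log2 scale (edgeR adjusted p = 0.000826). Gclc, the catalytic subunit, was at 51.6, 47.5 and 55.6 CPM in shFto and 45.4, 43.5 and 43.2 CPM in shNC. Its groups did not overlap either, but the log2 fold change of 0.23 did not pass the test (edgeR adjusted p = 0.0671, unadjusted 95% interval 0.03 to 0.43). It passed in 2 of the 11 alternatives, with library totals as scaling and without shFto replicate 2, and its adjusted p ranged from 0.0247 to 0.171. Gss, which adds glycine in the second step, was at 45.9, 45.6 and 53.6 CPM against 49.1, 38.9 and 50.6 CPM, with overlapping groups. Its log2 fold change was 0.07 (edgeR adjusted p = 0.651), and its sign turned under at least 1 alternative.

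Among the enzymes that use or restore glutathione and thioredoxin, Srxn1, which repairs over-oxidised peroxiredoxins, was at 115, 109 and 123 CPM in shFto and 79.4, 76.4 and 76.1 CPM in shNC tumour cells. It rose by 0.58 ± 0.08 (SE) on the log2 scale (edgeR adjusted p = 2.68e-05), with no overlap. Gsr, the reductase that returns oxidised glutathione to its reduced form, was at 82.6, 83.0 and 89.2 CPM against 76.5, 72.5 and 66.7 CPM and rose by 0.24 (edgeR adjusted p = 0.0338). That call was lost in 4 of the 11 alternatives, where its adjusted p reached 0.101. Txnrd1, the cytosolic thioredoxin reductase, was at 432, 444 and 413 CPM against 409, 370 and 334 CPM, a log2 difference of 0.21 (edgeR adjusted p = 0.0644) without overlap. Txnrd1 passed the test in 6 of the 11 alternatives, and over all 11 its adjusted p ranged from 0.022 to 0.181. Gpx4, the peroxidase that removes lipid hydroperoxides, went the other way. It was at 216, 203 and 252 CPM in shFto and 259, 249 and 339 CPM in shNC, and it fell by 0.34 on the log2 scale (edgeR adjusted p = 0.02). The highest shFto library of Gpx4 was above the lowest shNC library, and the call was lost in 3 alternatives, without shFto replicate 1, shFto replicate 2 or shNC replicate 3, with adjusted p up to 0.148.

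Of the 2 stress enzymes, Nqo1, which reduces quinones, was at 27.1, 26.4 and 27.7 CPM in shFto and 17.8, 15.2 and 18.4 CPM in shNC tumour cells. It rose by 0.67 ± 0.12 (SE) on the log2 scale (edgeR adjusted p = 0.000323). Hmox1, which breaks down haem, was at 66.9, 65.3 and 64.4 CPM in shFto, below the 68.2, 73.6 and 79.3 CPM of shNC. Its log2 fold change of -0.17 did not pass the test (edgeR adjusted p = 0.138).

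In all, 4 of the 9 members other than Slc7a11 were called higher and 1 lower in tumour cells. Among all 11718 genes tested there, 15.9% were called higher and 16.9% lower. In 6 of the 9, every shFto library lay above every shNC library, and in 1, Hmox1, below; over all genes this held for 22.5% and 22.7%. The median log2 fold change of the 9 was 0.23, that of all genes -0.0028. Scaled to library totals, 6 members were called higher and 1 lower, and the share of higher genes among all calls went from 48.5% to 60.0%. Without shFto replicate 1, or without shNC replicate 3, 3 members were called, all higher.

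**Figure D2:**
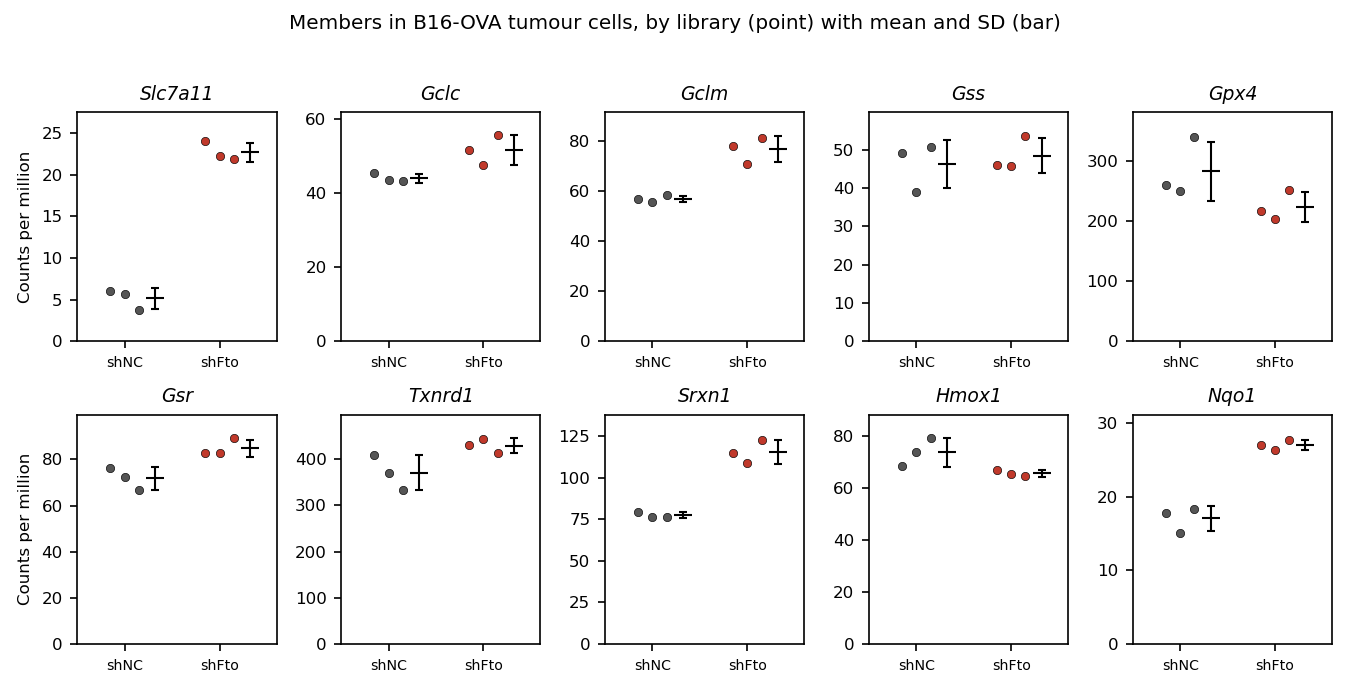
Each panel gives 1 member's CPM in the 3 shNC and 3 shFto tumour libraries as points, with the mean and SD as a bar beside them. Groups are separate for Slc7a11, Gclc, Gclm, Gsr, Txnrd1, Srxn1 and Nqo1, higher in shFto, and for Hmox1, lower in shFto. Of these, Gclc, Txnrd1 and Hmox1 did not pass the test. Gpx4 is the member called lower, and its groups overlap, as do those of Gss.

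In T cells beside knockdown tumour cells Txnrd1, Srxn1, Gsr and Hmox1 were higher, of which Srxn1 and Gsr were also called higher in tumour cells, and glutathione synthesis genes did not pass the test for the mean of both lines. Txnrd1 levels were 296 and 288 CPM with shFto-1 tumour cells, 344 and 339 CPM with shFto-2, and 162 and 198 CPM with shNC. Every co-culture with a knockdown line was above both controls, and the rise over both lines was 0.80 ± 0.10 (SE) on the log2 scale (edgeR adjusted p = 0.000208). Srxn1 was at 26.8 and 33.4 CPM, then 27.3 and 34.1 CPM, against 15.4 and 17.2 CPM in the same order, and rose by 0.87 ± 0.18 (edgeR adjusted p = 0.00371). Gsr was at 58.5 and 51.3 CPM, then 71.0 and 64.6 CPM, against 32.9 and 42.1 CPM, and rose by 0.68 ± 0.14 (edgeR adjusted p = 0.00349). These genes kept non-overlapping groups on both lines. The melanoma marker share applied to the tumour levels would give 26.4% to 41.7% of the Srxn1 level. For Gsr this was 8.69% to 15.9%, and for Txnrd1 9.08% to 17.4%. With that amount taken away, the ratio of Srxn1 means was 2.15, where it was 1.87 before.

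Hmox1 levels were 64.3 and 56.1 CPM with shFto-1 cells, 85.4 and 81.1 CPM with shFto-2, but 43.6 and 54.7 CPM with shNC. The lower shFto-1 library was close to the higher control. Over both lines Hmox1 rose by 0.51 ± 0.13 (SE) on the log2 scale (edgeR adjusted p = 0.0114). The call was lost with library totals as scaling (adjusted p = 0.0696 by edgeR) and without shNC replicate 1 (edgeR adjusted p = 0.102).

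Gclm levels were 26.2 and 25.3 CPM with shFto-1 cells, 27.8 and 31.1 CPM with shFto-2, and 18.9 and 22.1 CPM for the controls. The groups did not overlap, with a log2 difference of 0.40 for the mean of both lines (edgeR adjusted p = 0.0628, 95% interval 0.07 to 0.73). Gss was at 17.7 and 17.2 CPM, then 15.3 and 19.4 CPM, against 14.6 and 14.0 CPM, also without overlap, and its difference of 0.29 did not pass the test (edgeR adjusted p = 0.283). Gclc was at 50.2 and 60.0 CPM, then 51.9 and 49.7 CPM, against 48.9 and 50.1 CPM, and Gpx4 at 102 and 76.4 CPM, then 69.6 and 69.8 CPM, against 70.0 and 76.9 CPM. Over both lines, Gclc and Gpx4 overlapped with the controls, at log2 differences of 0.09 and 0.10 whose sign turned under at least 1 alternative (edgeR adjusted p = 0.619 and 0.612). Nqo1 was low in T cells, at 1.75 to 4.64 CPM from 11 to 48 reads. Its 95% interval for the log2 difference, -1.80 to 1.66, left a change of either sign undetectable at this depth. The melanoma marker share applied to tumour Nqo1 would give 1.23 to 2.27 CPM, or 26.5% to 127% of its level. For Gpx4, Gss and Gclm the same share was 18.4% to 34.1%, 20.5% to 30.7% and 20.1% to 24.6%.

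Over both lines 4 of the 9 members other than Slc7a11 were called higher and 0 lower, by edgeR and by DESeq2, where 20.3% and 12.7% of all 12824 tested genes were. At an unadjusted p under 0.05, 0 of the 9 were lower, and the share of all genes at that limit was not computed. In 6 of the 9 all 4 libraries beside knockdown cells lay above both controls, which held for 28.2% of all genes. The median of the 9 was 0.40 on the log2 scale, that of all genes -0.01. Scaling to library totals moved the median of all T cell genes by -0.17 and upper quartile scaling by -0.11. The share of higher genes among all calls was then 42.8% and 50.0% in place of 61.5%, and 3 and 4 members were called higher. With the melanoma marker share taken away, 7 of the 9 members were higher in all 4 libraries beside knockdown cells. The share of all genes was not computed after this subtraction. Gpx4 was the member added, at 51.4 CPM or more beside knockdown cells and at most 50.7 CPM in shNC. The amount taken from Gpx4 was 20.3 and 26.2 CPM in shNC and 16.2 to 18.7 CPM beside knockdown cells. Markers of CD8 T cells summed to 5104 and 5402 CPM for shNC co-culture, 4509 and 4522 for shFto-1 and 3534 and 3857 for shFto-2; the part of this in the differences was not tested.

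Taken line by line, shFto-1 co-culture gave 3 higher members, Gsr, Txnrd1 and Srxn1, at log2 differences of 0.53, 0.69 and 0.85 (edgeR adjusted p = 0.0327, 0.0021 and 0.0121), against 15.4% of all genes. The Gsr call was lost in 5 of the 11 alternatives, where its adjusted p reached 0.21, namely with scaling to library totals or to the upper quartile and without shFto-1 replicate 1 or shNC replicate 1, which each left 2 members called, and without shFto-1 replicate 2. In that last case only Txnrd1 was called there. The shFto-2 co-culture gave 5 higher members, against 20.4% of all genes. These were the same 3 genes at 0.83, 0.91 and 0.89, with Hmox1 at 0.74 and Gclm at 0.50 (edgeR adjusted p = 0.00195, 0.000167, 0.00557, 0.00259 and 0.043). The Gclm call was lost in 10 of the 11 alternatives. Both lines were set against the same 2 controls.

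Tested against each other, the lines gave no call among the 10 members by edgeR, where 1.91% of all genes were called in either direction. At an unadjusted p under 0.05 there were 3, Slc7a11, Hmox1 and Gpx4, and the share of all genes at that limit was not computed. DESeq2 called 1 member, but it also called 1008 genes in all, where edgeR called 245. Hmox1 was higher beside shFto-2 by 0.46 on the log2 scale (edgeR adjusted p = 0.112, DESeq2 adjusted p = 0.0139), and the range over its alternatives was 0.0139 to 0.383. Gpx4 was at -0.37 (edgeR adjusted p = 0.231). A test that misses the threshold does not show that the lines act alike.

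**Figure D3:**
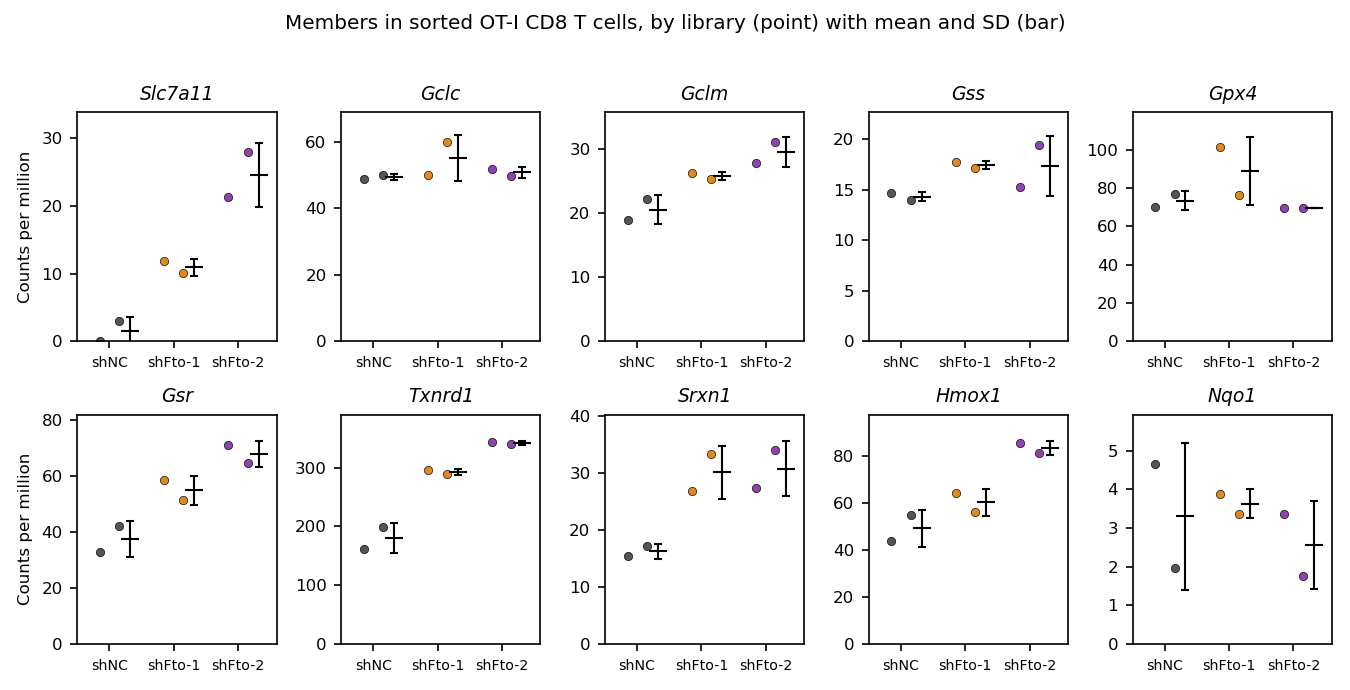
Each panel gives 1 member's CPM in the 2 T cell libraries of each co-culture as points, with the mean and SD as a bar cut at 0. Slc7a11, Gclm, Gss, Gsr, Txnrd1, Srxn1 and Hmox1 lie higher beside both knockdown lines, while Gclc, Gpx4 and Nqo1 overlap with shNC. Gclm and Gss did not pass the test over both lines.

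**Figure D4:**
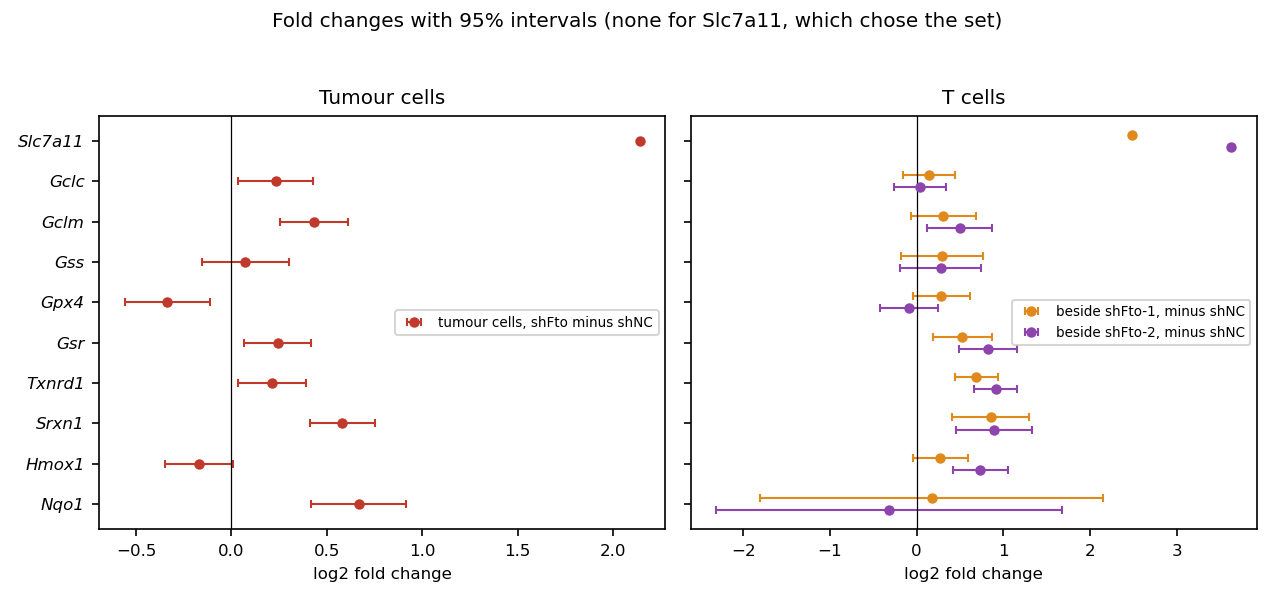
Log2 fold changes of the members (x axis) are shown with 95% intervals in tumour cells and in T cells for each line against shNC. Slc7a11 has a point and no interval because its values chose the set. Hmox1 lies at -0.17 in tumour cells and at 0.28 and 0.74 in T cells.

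The wider pathway was followed in 9 lists of related genes, 114 genes in all, of which 108 were tested in tumour cells and 103 in T cells. In tumour cells 25 (23.1%) were called higher and 17 (15.7%) lower, beside 15.9% and 16.9% of all genes tested; with library totals as scaling the counts were 33 and 14. In T cells over both lines 38 (36.9%) were called higher and 7 (6.8%) lower, beside 20.3% and 12.7% of all genes, and 27 and 14 with library totals. The counts of each list below are to be read against these shares of all genes, which several of the lists come near. These shares are for TMM scaling, and the counts with library totals are not to be read against them. With library totals, 3964 genes were called in tumour cells, 60.0% of them higher, and 4233 in T cells, 42.8% of them higher. With TMM scaling the medians of the pathway genes were 0.0032 in tumour cells and 0.31 in T cells on the log2 scale.

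Regulators come first. Of 10 NRF2 and ATF4 regulators, 3 were higher and 1 lower in tumour cells. Bach1, a repressor of antioxidant genes, rose by 0.73 (edgeR adjusted p = 0.000198), Maff, a small MAF partner, by 0.71 (edgeR adjusted p = 0.00736) and Nfe2l2 by 0.27 (edgeR adjusted p = 0.0127, lost in 2 of the 11 alternatives). In T cells 4 were higher and 1 lower (2 and 2 with library totals). Atf4 went from 286 to 473 CPM and rose by 0.73 (edgeR adjusted p = 0.000449), Mafg rose by 0.77 (edgeR adjusted p = 0.00202) and Bach2 was at -0.34 (edgeR adjusted p = 0.014, lost in 3 alternatives). Bach1, Maff and Nfe2l2 did not pass the test in T cells, at -0.0033, 0.31 and -0.22 (edgeR adjusted p = 0.983, 0.114 and 0.192). Atf4 and Bach2 did not pass it in tumour cells, at -0.04 and -0.14 (edgeR adjusted p = 0.718 and 0.72). Mafg was lower there, at -0.24 (edgeR adjusted p = 0.0303).

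Transport and supply of cystine, cysteine and glutamate gave 4 higher and 1 lower of 11 in tumour cells. Slc3a2, the partner chain of Slc7a11, rose from 283 to 348 CPM, by 0.30 on the log2 scale (edgeR adjusted p = 0.00899). The neutral amino acid transporter Slc1a4 rose by 0.68 (edgeR adjusted p = 0.00171), and Ahcy, which splits S-adenosylhomocysteine, was at -0.65 (edgeR adjusted p = 0.000162). In T cells 6 of the 9 tested were higher and 0 lower. Slc3a2 was among them and rose from 147 to 234 CPM, by 0.68 on the log2 scale (edgeR adjusted p = 0.000496). Slc7a5, the large neutral amino acid transporter that also pairs with Slc3a2, rose by 1.15 (edgeR adjusted p = 3.69e-05), and Mat2a, which makes S-adenosylmethionine, by 0.83 (edgeR adjusted p = 0.000167).

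Peroxidases, transferases and reduction partners of glutathione gave 7 higher and 1 lower of 22 in tumour cells, with Mgst1 at 1.05, Gpx8 at 0.51 and the mitochondrial glutaredoxin Glrx5 at -0.71 on the log2 scale. In T cells 5 of 20 were higher and 0 lower, and Glrx5 was among them at 0.95, with Gsto1 at 1.23 and Esd at 0.53. Of the genes of glutathione export and breakdown, 1 was higher and 3 lower of 10 in tumour cells. Ggt1, which opens glutathione outside the cell, rose by 2.59 from 0.727 to 4.53 CPM, while Ggt7 was at -0.62 and the dipeptidase Cndp2 at -0.42. In T cells 3 of 9 were higher, namely Lap3 at 1.19, the exporter Abcc4 at 1.03 and Cndp2 at 0.66.

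In the thioredoxin and peroxiredoxin list 1 of 17 genes was higher in tumour cells and 4 were lower, among them Prdx2 at -0.49, Txnip at -0.36 and the mitochondrial thioredoxin Txn2 at -0.32. With DESeq2, with the replicate block, and without shFto replicate 2 or shNC replicate 2, 0 were higher and 3 lower there. In T cells 9 of 17 were higher and 3 lower (6 and 3 with library totals). The difference between the cell types was not tested. Txnrd3 rose by 1.30 and Txn2 by 1.09, and Txnip, which binds thioredoxin and holds back glucose uptake, fell from 288 to 111 CPM, at -1.43 on the log2 scale. Among 5 genes that remove superoxide and hydrogen peroxide, Sod1 was at 0.39 and Park7 at -0.33 in tumour cells, and in T cells Sod2 rose by 0.85, Sod1 by 0.28 and catalase (Cat) was at -0.95. The Sod1 call in T cells was lost in 10 of the 11 alternatives.

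NADPH supply gave 4 higher and 3 lower of 10 in tumour cells, with Me1 at 0.63, Aldh1l2 at 0.59 and Pgls at -0.61 on the log2 scale. In T cells it gave 3 higher and 1 lower (2 and 3 with library totals), with Mthfd2 at 1.06, Tkt at 0.83 and Idh2 at -0.56. Of 12 iron and haem genes, 4 were higher and 1 lower in tumour cells, with the iron exporter Slc40a1 at 1.22, Blvrb at 0.62 and the transferrin receptor Tfrc at 0.46. In T cells 3 were higher and 0 lower, Tfrc at 0.73, Blvra at 0.63 and Hmox2 at 0.48, but with library totals 1 was higher and 3 lower. The Blvra call was lost in 9 of the 11 alternatives and the Hmox2 call in 6. Of 11 tested ferroptosis genes, 0 were higher and 2 lower in tumour cells, Scd2 at -0.46 and Fads2 at -0.31. In T cells 3 were higher and 1 lower, with Dhodh at 1.92, Acsl4 at 0.63 and Scd2 at -1.11.

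Genes whose level followed Slc7a11 most closely were looked up across the 6 libraries of each table, on log2(CPM + 1). In tumour cells they were Wasf1, Cdk17 and Piwil2, with Pearson r of 0.9994, 0.9984 and 0.9984, of 8763 genes. In T cells they were Mrpl39, Slc12a2 and Sec11a, with r of 0.9983, 0.9981 and 0.9975, of 8002 genes. Among the members, Srxn1 was closest in tumour cells (r = 0.9717), and Gclm and Txnrd1 in T cells (both r = 0.9847). The libraries share their groups, so genes with the same group difference score high here.

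At the other members only the presence of ATAC-seq peaks was compared between the tumour groups, and not the amount of open chromatin. RefSeq promoter entries were matched for 7 of the 10, all but Gclc, Gsr and Hmox1, and all 7 had a peak over at least 1 promoter in all 6 libraries, as did 88.8% of 8949 tested genes with an entry. Gpx4 had 4 start sites in the table and Txnrd1 3. The start of Gpx4 at chr10:80047166 and the start of Txnrd1 at chr10:82833951 had no peak in any library, while the starts of Gpx4 at chr10:80053565 and of Txnrd1 at chr10:82859206 had a peak in all 6. Over the 10 genes and 10 kb on each side, 61 merged regions were found, 38 of them in all 6 libraries. None had a peak in all 3 shFto libraries and no shNC library, and 1 had the reverse, inside Txnrd1 (chr10:82851813-82852120). Of 88081 regions in the genome, 0.879% and 1.66% were of those kinds and 56.4% were in all 6.

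**Figure D5:**
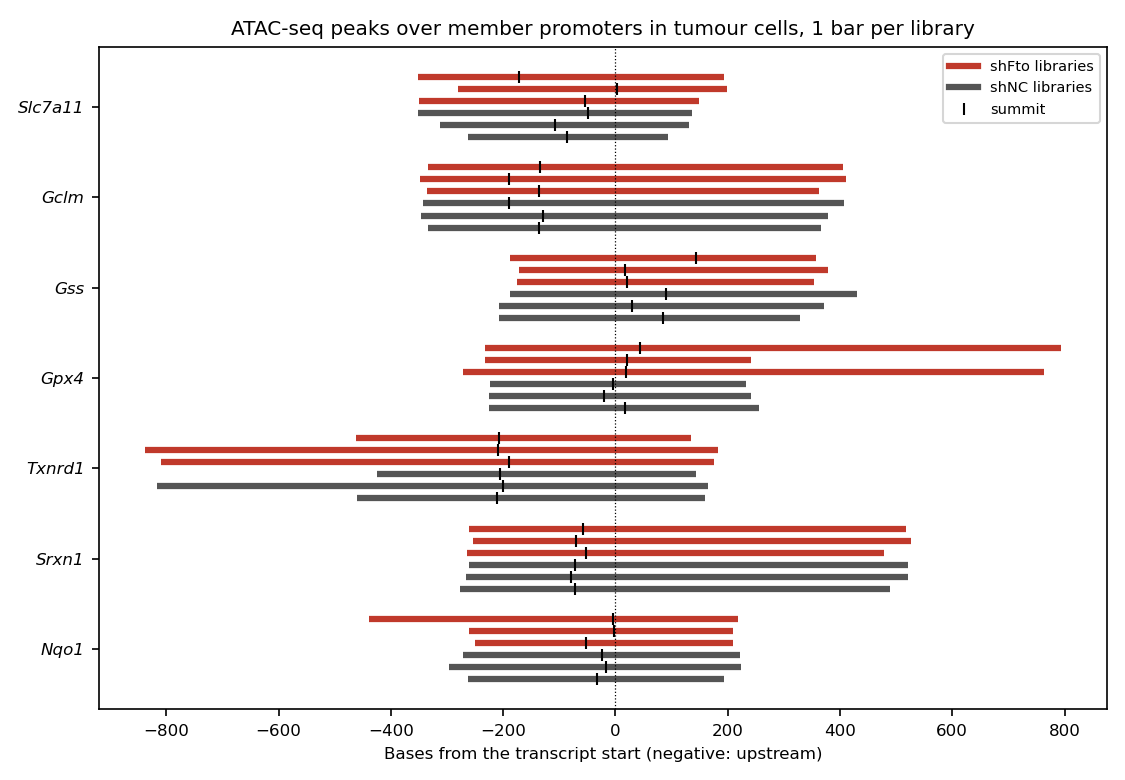
ATAC-seq peaks of the 6 tumour libraries are drawn over the promoters of the 7 members with an entry, by distance in bases from the transcript start, with 1 bar per library and its summit as a tick. The Slc7a11 peaks are 357 to 546 bases wide and overlap between groups. The start shown is the one at chr10:80053565 for Gpx4 and at chr10:82859206 for Txnrd1.

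Promoters of 3 further members are printed because these genes were called higher in tumour cells or T cells and their open windows held motif matches, marked in capitals. The motifs were TGACNNNGC, the core of the antioxidant response element bound by NRF2 with small MAF proteins, and TGAGTCA, an AP-1 and MAF core that was chosen after the promoters were seen. Both strands were searched, and a sequence such as TGAGTCA can lie within a longer antioxidant response element. The windows are Gclm chr3:122245307-122245556, Txnrd1 chr10:82858956-82859205 and Srxn1 chr2:152105274-152105523, all on the plus strand of GRCm38.p6, from RefSeq.
Gclm: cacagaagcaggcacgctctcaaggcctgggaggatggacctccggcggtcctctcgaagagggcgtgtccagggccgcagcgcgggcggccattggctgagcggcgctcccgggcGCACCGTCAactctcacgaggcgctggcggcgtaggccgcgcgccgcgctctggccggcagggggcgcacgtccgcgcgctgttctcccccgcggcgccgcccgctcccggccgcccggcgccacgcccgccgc
Txnrd1: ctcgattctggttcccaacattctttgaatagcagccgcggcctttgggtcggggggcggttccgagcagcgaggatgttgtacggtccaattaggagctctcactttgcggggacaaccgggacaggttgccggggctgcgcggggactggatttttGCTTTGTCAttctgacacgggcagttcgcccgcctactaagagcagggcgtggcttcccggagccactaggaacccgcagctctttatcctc
Srxn1: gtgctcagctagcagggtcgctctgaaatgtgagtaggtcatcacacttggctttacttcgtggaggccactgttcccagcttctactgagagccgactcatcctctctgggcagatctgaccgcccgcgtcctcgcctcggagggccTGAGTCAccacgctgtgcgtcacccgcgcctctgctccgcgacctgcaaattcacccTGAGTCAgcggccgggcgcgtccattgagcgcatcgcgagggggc
TGACNNNGC was matched once each in Gclm and Txnrd1, on the minus strand, and in 10.2% of all 32851 windows. TGAGTCA was matched at 2 places in Srxn1, beginning 102 and 45 bases before the start. At least 1 match was found in 4.46% of all windows and 2 or more in 0.167%. No match says only that these letters are not in the window.

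m6A peaks are the fourth readout, with 1 list per group and so no check by replicates. Of the 10 members, 1 had a peak in the shNC list, 2 in the shFto list and 4 in the Dac51 list, where 44.2%, 53.6% and 49.9% of 11718 tested genes had one. Srxn1 had a peak in all 3 lists near the same place, at chr2:152109073-152109881 in shNC, chr2:152109043-152109701 in shFto and chr2:152109073-152109671 after Dac51. The deposited fold enrichments there were 7.13, 11.7 and 8.85, above 63.5%, 70.6% and 64.2% of the peaks of their own lists. Srxn1 had 2 more peaks in the shFto list, the last of them ending 90 bases from the end of the gene, and 1 more in the Dac51 list.

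Slc7a11 had an m6A peak only in the Dac51 list, at chr3:50372185-50372335 inside the gene, with a deposited fold enrichment of 3.52. Gclc had a peak in the shFto list at chr9:77793685-77793744 (fold enrichment 4.29) and another in the Dac51 list at chr9:77793059-77793297 (2.1), which did not overlap. Txnrd1 had a weak peak in the Dac51 list at chr10:82896135-82896285, with a fold enrichment of 1.43. Gclm, Gss, Gpx4, Gsr, Hmox1 and Nqo1 had no peak in any list. A missing peak depends on the depth of each library, which the peak lists do not give, so no difference between groups is read from it.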

How the data were processed

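RNA-seq, ATAC-seq and m6A-seq of B16-OVA cells and RNA-seq of OT-I T cells were used as deposited. Per the submitters' processing notes, the tools were STAR 2.7.0f, Bowtie2 2.3.5, MACS2 2.1.3, Trim Galore 0.6.0, Picard and deepTools, on the mouse build mm10. Which program counted reads, with which annotation and strand setting, is not given in the sources used here. Per the file headers, the authors' RNA-seq tables give an unscaled count for each gene symbol and library. For ATAC-seq the deposited lists give each peak's fold enrichment ratio, -log10 p and q and a score, and the deposited m6A lists a fold enrichment ratio, a p-value and 2 scores, the log10 p and the log10 false discovery rate, per the file headers.

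Counts were tested with edgeR 4.0.16 (quasi-likelihood F test, TMM scaling, default filter) in R 4.3.3, with Benjamini-Hochberg adjustment over all genes tested at a threshold of 0.05. The RNA-seq tables were fitted apart, and the T cell contrasts shared 1 fit of 6 libraries. DESeq2 1.42.0, other scalings, no filter, a replicate block and leaving out each library were the alternatives. Where 1 library was left in a group, it was assumed to vary like the others. The fits were tested on simulated data. Nothing in the labels says that replicates came from different cultures or animals, and p-values then measure only the spread between these samples, which may be technical. Counts of replicates differed by more than sampling noise.

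Each ATAC-seq library kept its 67427 strongest peaks, as many as the smallest list holds, and an overlap of 1 bp counted. The common biological coefficient of variation was 0.0906 in tumour cells and 0.199 in T cells. Intervals of 95% use the t quantile at the fit's total degrees of freedom and are not adjusted. The limit of 3 counts covers counting error only. The members and the gene lists were chosen with earlier results of these data known. Named genes were the members, Fto, defining markers, up to 3 genes with the smallest adjusted p in each list and the 3 genes most like Slc7a11 with a mean of at least 10 CPM, without predicted or Rik symbols; 1 gene that this rule names is not reported here. Of the other marker lists, B cell, CD4 T cell, NK cell, myeloid, fibroblast and erythroid markers summed to at most 81.9 CPM in any library. RefSeq promoters (GRCm38.p6) gave 250 bases before and 50 after each start. Figures used Matplotlib 3.10.9, and peak steps Python 3.11.15, NumPy 2.4.6 and pandas 2.3.3.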

Additional observations from a re-analysis of the deposited data

Results flagged for a closer look

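In 12 of the members and named pathway genes every shFto tumour library lay on one side of the shNC libraries and every T cell library beside a knockdown line lay on the other side of its controls. The same held for 15 of the 102 genes of all pathway lists tested in both tables (14.7%) and for 14.6% of all 10636 genes tested in both, so the share in the lists was near that of all genes. Picking named genes by small adjusted p favours groups that do not overlap, so the 12 are not to be read against these shares. The difference between the cell types was not tested, because the tables were fitted apart. Among the members this was Hmox1, with a log2 fold change of -0.17 in tumour cells and 0.51 in T cells. The tumour value did not pass the test.

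Opposite sides with a call in both tables were found for 7 of the 102 pathway genes and 833 of the 10636 genes tested in both. The named genes were picked by small adjusted p. Of the named pathway genes, 6 passed the edgeR test in both tables, lower in tumour cells and higher in T cells. Their log2 fold changes were -0.65 and 0.73 for Ahcy, -0.42 and 0.66 for Cndp2, -0.71 and 0.95 for Glrx5, -0.24 and 0.77 for Mafg, -0.32 and 0.83 for Tkt, and -0.32 and 1.09 for Txn2. The other 5 passed in tumour cells and not in T cells. Their values were -0.33 and 0.26 for Park7 (edgeR adjusted p = 0.0776 in T cells), -0.61 and 0.23 for Pgls (0.304), -0.49 and 0.22 for Prdx2 (0.27), 0.59 and -0.50 for Aldh1l2 (0.095), and 0.51 and -0.59 for Gpx8 (0.28).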

How the results depend on the processing

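No value turned direction past the test under any alternative run. In tumour cells 5 members were called, and leaving out 1 library gave 3 to 6. Of 5 called members, Gclm, Srxn1 and Nqo1 held under all 11 alternatives. For the shFto-1 co-culture, leaving out 1 library gave 1 to 3 calls. For shFto-2 against shFto-1, where 0 were called, DESeq2 called 1, no filter on low counts gave 2 and leaving out 1 library gave 0 to 1. In the m6A list of shFto cells, 1 member in place of 2 had a peak at a log10 false discovery rate of at most -5. The causes were not tested.

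No pairing by replicate number was seen in tumour cells. Same-numbered deviations correlated at 0.0221, 0.0489 and -0.0111 there, and those of unlike number at -0.0842 to 0.0606. In T cells same-numbered deviations correlated at 0.361, -0.333 and -0.207. With 2 libraries a group, unlike numbers must give the same values with the sign turned, so these cannot decide on pairing in T cells. With the replicate block 6 members were called in tumour cells, and in T cells 4 over both lines, 3 for shFto-1, 5 for shFto-2 and 0 between lines.

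T cell values rest on 2 libraries a group, and Slc7a11 beside shNC on 21 reads. The motif TGAGTCA, the subtraction of the tumour share and the repeats for the wider pathway were chosen after seeing the data.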
